A study of Mus musculus with 16 samples.

Results

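The interactions described here are promoter contacts of mouse liver that were listed at a single time of day, ZT0, the moment the lights came on. A member is an unordered pair of HindIII fragments with a CHiCAGO score of 7 or more in the ZT0 list that is absent from the ZT6, ZT12 and ZT18 lists. There were 2091 members among the 247177 distinct pairs of the 4 lists. They made up 2.88% of the 72562 ZT0 pairs with a score of 7 or more (95% Wilson interval 2.76 to 3.01%). All samples came from 8 week old male wild-type C57BL/6 mice, fed ad libitum under equal spans of light and dark, with livers taken at ZT0, ZT6, ZT18 and, as the lights went off, ZT12. Livers were pooled by 2, with 3 such pools a timepoint, and 1 of them was sequenced on 2 lanes, which gave 4 samples a timepoint and 16 in all. Because the authors called interactions on merged pools, there is 1 list a timepoint and no value below has a replicate error or a test. All intervals cover counting error only. The files hold no expression values, so the label liver could not be checked against marker genes.

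Promoter Capture Hi-C (P-CHi-C) cuts crosslinked chromatin at HindIII sites, ligates ends that lie close together in the nucleus and enriches, with RNA probes, those joined pieces that include a promoter fragment, here called a bait. CHiCAGO scores a pair of fragments by how far its reads exceed what distance and technical noise would give, and the deposited lists begin at a score of 5. A pair that falls just under this minimum is missing from a list, so absence is no measurement of a lost contact. In liver, the circadian clock is a loop of transcription factors. Bmal1, Clock and their partners bind E-boxes and drive their own repressors, and this timing reaches genes of glucose, lipid and bile acid metabolism. The members were chosen by their ZT0 scores and by the presence of a pair in the lists, and those values are given as descriptions.

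Of the 1701 members with a non-promoter other end, 199 ended on a HindIII fragment under 250 bp, a larger share than in the single-timepoint pairs of the other lists, and 6 of these fragments are printed as examples. Each is the plus strand of build mm9, 5' to 3', with the remains of the HindIII sites at both ends in capitals. The Dennd1b fragment is intronic, lies at chr1:141048134-141048327 and was joined to the promoter of Lhx9, a LIM homeobox transcription factor, with a score of 15.01. The Heyl fragment, at chr4:122920867-122921039 in an intron of that Notch target gene, was joined to the promoter of Pabpc4, which encodes a poly(A)-binding protein, with a score of 14.63 and to that of Heyl itself with 7.31. The Astn2 fragment, at chr4:65243698-65243860 in an intron, was joined to the promoter of Pappa, a protease that cleaves IGF-binding proteins, with a score of 12.9. The Noxa1 fragment (intron, chr2:24943971-24944128), the Sbsn fragment (intron, chr7:31538646-31538804) and the histone cluster fragment (intergenic, chr13:23846243-23846432) each ended 3 members.
Dennd1b fragment: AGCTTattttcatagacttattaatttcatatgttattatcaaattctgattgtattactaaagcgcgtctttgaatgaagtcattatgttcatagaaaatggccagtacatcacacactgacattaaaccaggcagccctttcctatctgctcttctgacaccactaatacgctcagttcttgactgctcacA
Heyl fragment: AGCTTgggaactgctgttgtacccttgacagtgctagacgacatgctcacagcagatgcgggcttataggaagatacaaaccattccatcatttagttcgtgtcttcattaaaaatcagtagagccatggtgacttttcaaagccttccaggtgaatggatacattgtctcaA
Astn2 fragment: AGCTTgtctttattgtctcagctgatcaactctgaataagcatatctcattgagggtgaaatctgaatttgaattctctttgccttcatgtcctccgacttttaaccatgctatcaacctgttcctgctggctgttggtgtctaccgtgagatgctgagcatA
Noxa1 fragment: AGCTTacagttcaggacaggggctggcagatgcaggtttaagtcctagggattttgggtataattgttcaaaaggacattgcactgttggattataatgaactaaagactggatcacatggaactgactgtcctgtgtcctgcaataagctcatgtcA
Sbsn fragment: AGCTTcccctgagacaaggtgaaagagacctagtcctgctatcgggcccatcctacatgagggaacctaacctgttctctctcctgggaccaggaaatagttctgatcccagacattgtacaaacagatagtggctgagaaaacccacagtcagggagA
Histone cluster fragment: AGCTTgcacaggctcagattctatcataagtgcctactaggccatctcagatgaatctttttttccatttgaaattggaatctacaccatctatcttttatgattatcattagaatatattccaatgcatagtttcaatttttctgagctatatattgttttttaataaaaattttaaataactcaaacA
The lengths were 194, 173, 163, 158, 159 and 190 bp in this order. The Heyl and Astn2 fragments were in no pair of the ZT6, ZT12 and ZT18 lists. The Noxa1 fragment was in 9 listed pairs at ZT0 and in 1, 2 and 2 at the later timepoints, and the Sbsn fragment in 14, 5, 5 and 8. The histone cluster fragment was in 8 pairs at ZT0 and in 4 at each other timepoint. The printed fragments were picked for their members, so their larger number of pairs at ZT0 follows from that choice.

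The same rule applied to the other lists found 2808 pairs at ZT6 only, 1976 at ZT12 only and 1955 at ZT18 only. These were 3.64% of 77247, 2.6% of 76144 and 2.58% of 75834 pairs with a score of 7 or more. ZT0 therefore held the second largest such set of the 4. In a table supplied with the study, the list totals for ZT6, ZT12 and ZT18 stand under different timepoints than in the sample labels. The labels were followed, and the ZT0 membership is the same either way, but the names of the other 3 lists carry this doubt. Most ZT0 pairs with a score of 7 or more were listed throughout, with 58258 (80.3%) at all 4 timepoints, 8322 at 3 and 3891 at 2.

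The members were weak interactions. Their scores had quartiles of 7.25, 7.62 and 8.26, against a median of 9.49 over all ZT0 pairs with a score of 7 or more. A score below 8 was held by 1385 members (66.2%), and 114 (5.45%) reached 10. At ZT0, 7.44% of the pairs with a score of 7 to 8 were members, but 0.509% of those from 10 to 15 and 0.079% of those at 15 or above. At ZT6 the corresponding shares of ZT6-only pairs were 9.34%, 0.574% and 0.115%, so the fall with the score was not particular to ZT0. The score limit cut through a dense region. Another 18166 pairs were listed at ZT0 only with a score below 7, and 244 members lay within 0.1 above the limit (lowest 7.0) against 250 pairs within 0.1 below it (highest 6.99). The requirement of absence did the same: of the 3891 ZT0 pairs listed at 1 other timepoint, 876 had a score below 5.5 there.

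**Figure D1:**
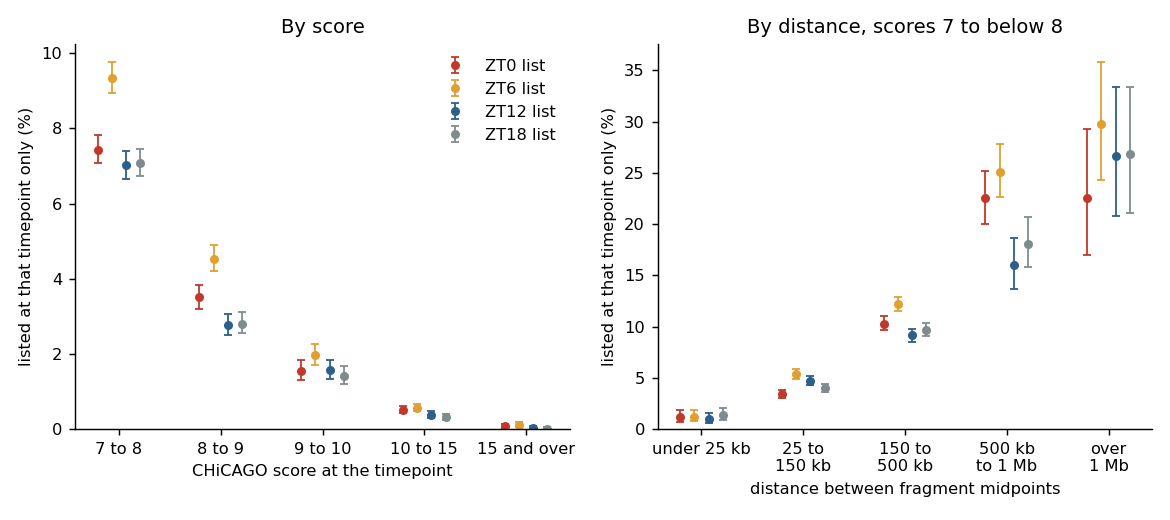
Share of pairs with a score of 7 or more that were listed at a single timepoint (y axis, %), by CHiCAGO score (left) and by distance between fragment midpoints among scores of 7 to below 8 (right). Points are the 4 lists and bars are 95% Wilson intervals. The ZT0 share falls from 7.44% to 0.079% with the score and rises from 1.2% to 22.5% with the distance.

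The members spanned long distances. Between the midpoints of the fragments, the median was 273 kb (262 to 283 kb) for the 2078 members within a chromosome. It was 144 kb for all ZT0 pairs with a score of 7 or more. Single-timepoint pairs of the other lists lay near the members, with medians of 275 kb at ZT6, 242 kb at ZT12 and 265 kb at ZT18. More than 150 kb was spanned by 1649 members (79.4%, 77.6 to 81%), against 48.1% of all such ZT0 pairs and 76.4%, 70.9% and 75.1% of the ZT6-only, ZT12-only and ZT18-only pairs. Contacts under 25 kb were rare, with 28 members, while 1229 (59.1%) spanned 150 to 500 kb, 316 spanned 500 kb to 1 Mb and 104 spanned more than 1 Mb. The difference in distance was present within a narrow band of scores. Among ZT0 pairs with a score of 7 to below 8, the share of members rose from 1.2% under 25 kb to 3.42%, 10.3% and 22.5% in the next bands, and was 22.5% above 1 Mb. The ends of 88 members (4.23%) lay in the body of a gene that starts on their own promoter fragment, against 9.26% of all ZT0 pairs with a score of 7 or more.

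**Figure D2:**
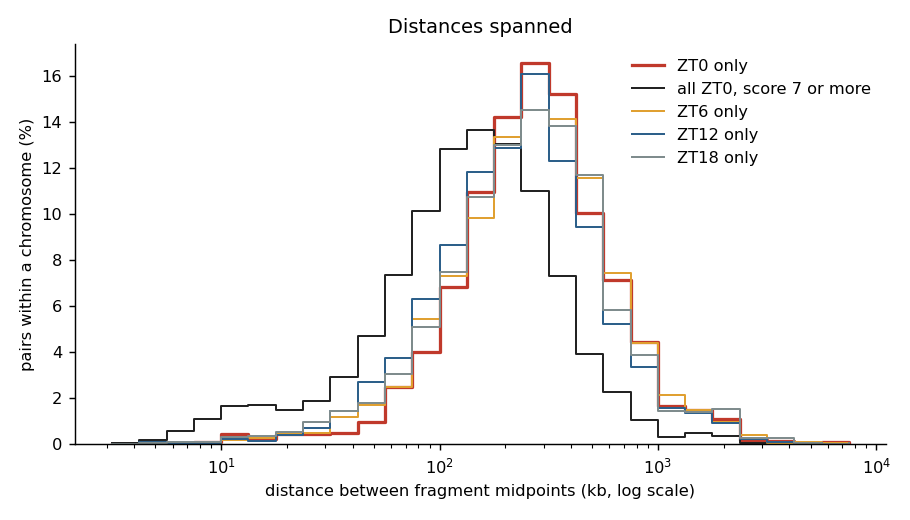
Distribution of the distance between fragment midpoints (x axis, kb, log scale) as a percentage of pairs within a chromosome (y axis), for the members, for all ZT0 pairs with a score of 7 or more, and for the pairs that the same rule finds at ZT6, ZT12 and ZT18. The 4 single-timepoint curves, with medians of 242 to 275 kb, lie to the right of all ZT0 pairs, with a median of 144 kb.

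Although the exact fragment pair was missing at the other timepoints, most members had a listed neighbour there. For 1596 members (76.3%), the same promoter had a contact within 10 kb of the other end at another timepoint, and for 1104 (52.8%) it had one at all 3. The HindIII fragment adjoining the other end was contacted at another timepoint for 1156 members (55.3%). Over all ZT0 pairs with a score of 7 or more, which include pairs listed elsewhere but not counted as their own neighbour, 91.7% had such a contact within 10 kb. The shares were 73.5%, 77% and 73.3% for the ZT6-only, ZT12-only and ZT18-only pairs. Members with and without a neighbour differed in kind. Of the 495 members without one, 260 (52.5%, 48.1 to 56.9%) joined a pair of promoter fragments, and their median distance was 334 kb. Of the 1596 with one, 130 (8.15%) did. The same division held in all ZT0 pairs with a score of 7 or more, where 82.7% of those without a neighbour and 12.8% of those with one joined promoters, but there the median distance of those without one was 127 kb. Of the ZT6-only, ZT12-only and ZT18-only pairs without a neighbour, 46.4%, 53.8% and 61.1% joined promoters, with median distances of 337, 314 and 330 kb.

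Promoter-promoter contacts were as frequent among the members as among all ZT0 pairs of this score. They numbered 390 (18.7%, 17 to 20.4%), against 18.6%. The ZT6-only, ZT12-only and ZT18-only sets held 16.7%, 18.5% and 22.6%. Of the 1701 members with a non-promoter other end, 702 (41.3%) ended in intergenic sequence, 486 (28.6%) in an intron, 463 (27.2%) on a fragment with an exon and 50 (2.94%) on a fragment with a gene start that was not a bait. There were 1669 distinct non-promoter ends, and their median GC content over the members was 43.4%, against 44.8% for all ZT0 pairs of this score. Ends in no pair of the other 3 lists accounted for 651 members (31.1%). The shares were 32.5%, 29.8% and 23.8% for the ZT6-only, ZT12-only and ZT18-only pairs. Over all ZT0 pairs of this score it was 0.897%, and every such pair is a member by construction.

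Very short other ends were more frequent among the members than among the single-timepoint pairs of the other lists. A non-promoter other end under 250 bp was held by 199 of 1701 members (11.7%, 10.3 to 13.3%). The share was 0.342% (8 of 2340) at ZT6 only, 3.48% (56 of 1610) at ZT12 only and 0.859% (13 of 1514) at ZT18 only. Among all pairs with a score of 7 or more, short ends made up 2.09% of the ZT0 list and 0.792%, 1.45% and 1.13% of the ZT6, ZT12 and ZT18 lists. Read by length, 19.1% of ZT0 pairs with an end of 150 to 200 bp and 12.5% with an end of 200 to 250 bp were members, against 2.55 to 2.7% from 500 bp upward. Within scores of 7 to below 8 and distances over 150 kb, 40.1% (65 of 162) of the pairs with an end under 250 bp were members, and 8.27 to 12.7% of the pairs with longer ends. The difference by length was therefore present at a fixed score and distance. It did not extend to all short ends. Ends under 500 bp made up 15.2% of the members and 17.1% of the ZT12-only pairs, against 7.35% at ZT6 only and 7.99% at ZT18 only, and the median length was 1972 bp for the members and 1884 bp, 2265 bp and 2180 bp for the ZT12-only, ZT6-only and ZT18-only pairs. In the ZT12 list, ZT12-only pairs took 9.25%, 6.15% and 6.86% of the pairs with ends of 200 to 250, 250 to 300 and 300 to 350 bp, so single-timepoint pairs with short ends were raised there as well, at longer lengths than at ZT0.

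The 199 members with a short end involved 183 distinct fragments of 151 to 248 bp (median 186 bp) and 190 promoter fragments. With promoter-promoter members left out, they scored higher than the members with a longer end, with a median of 7.84 against 7.57. A score of 10 or more was held by 21 of 199 (10.6%) against 54 of 1502 (3.6%). The members with a short end also spanned shorter distances, with a median of 191 kb against 278 kb. Their GC content was 42.6% against 43.6%. Counted over all scores, the 183 fragments were in 357 listed pairs at ZT0, or 158 once the members were taken out, against 63, 97 and 87 at ZT6, ZT12 and ZT18. The 1486 longer fragments were in 3631 pairs at ZT0, or 2129 without members, and in 2178, 2001 and 2132 at the other timepoints. Both sets were chosen for a member, and the pairs left at ZT0 still include pairs listed at ZT0 only with a score below 7, so these counts are a description.

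The rule did not use pairs listed at all 4 timepoints, and their scores showed the same split by length. In the 705 such pairs with a non-promoter end of 150 to 250 bp, the median ZT0 score of 10.9 stood against 7.89, 9.83 and 8.78 at ZT6, ZT12 and ZT18. The median difference of ZT0 from the mean of the other timepoints was 1.81 (1.47 to 2.17), and ZT0 was highest in 53.3% of the pairs. With an end of 250 to 500 bp (3662 pairs) the order turned, with medians of 7.97, 9.18, 9.81 and 9.41, a difference of -1.47 and ZT0 highest in 11%. From 500 bp upward the difference lay between -0.37 and -0.23. A short end was also frequent in ZT0 pairs with a score of 7 or more that 1 other list shared, at 11% (102 of 927) for ZT12, 5.58% (55 of 986) for ZT18 and 1.55% (20 of 1291) for ZT6. Fragment length moved with timepoint over the whole lists, and its part in the members was not tested, since the files hold no reads or insert sizes. Without ends under 250 bp, the share of ZT0 pairs that were members was 2.65%, against 3.65%, 2.55% and 2.58% in the other lists.

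**Figure D3:**
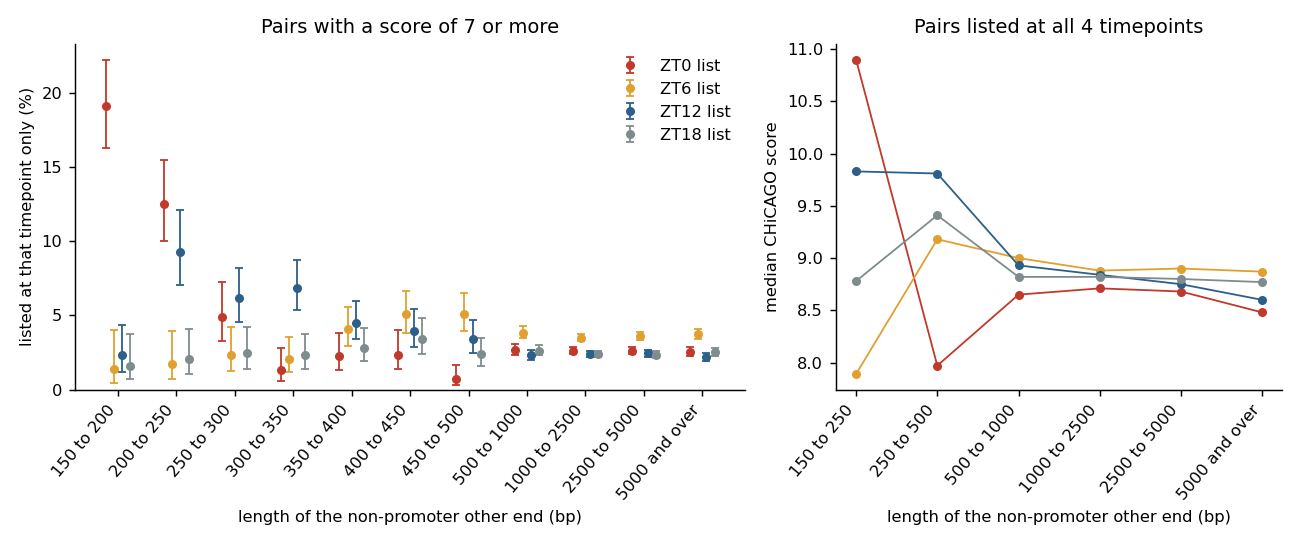
Left, share of pairs with a score of 7 or more that were listed at a single timepoint (y axis, %) by the length of the non-promoter other end (x axis, bp), with 95% Wilson intervals. Right, median CHiCAGO score of pairs listed at all 4 timepoints by the same length. At ZT0 the share is 19.1% for ends of 150 to 200 bp and under 3% from 500 bp, and the median score of shared pairs is 10.9 for ends of 150 to 250 bp and 7.97 for ends of 250 to 500 bp.

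Members were spread thinly over promoters. Of the 12682 promoter fragments with a ZT0 pair of score 7 or more, 2054 (16.2%) had a member. A single member was found on 1739 of them (84.7%), 243 had 2, and 72 had 3 or more. Promoters with a member had a mean of 20.2 contacts at ZT0 once the members were taken out and 20.4, 19.8 and 20 at ZT6, ZT12 and ZT18. Promoters with no member had means of 11.2, 12, 11.9 and 11.9. A promoter with more listed pairs has more chances to hold a member, so this contrast follows at least in part from the choice. Members were taken out of the ZT0 count only. Pairs listed at ZT6, ZT12 or ZT18 only stay in the other counts, so the means across timepoints are a description. The 72 promoters with 3 or more members had 38 contacts at ZT0 without the members against 35.1, 33.6 and 34.1. They were chosen for pairs listed at ZT0 only, and those with a score below 7 stay in this count, so a higher number at ZT0 follows from the choice. On those 72, pairs listed at all timepoints scored 0.49 higher at ZT0 than the mean of the other timepoints (0.36 to 0.63, 1413 pairs), while the difference was -0.04 over all promoters with a member and -0.40 over those without. These groups of promoters were divided by their pairs listed at ZT0 only, so the differences are a description as well.

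The promoter with the highest-scoring members was that of Vwa5b2 on chromosome 16 (chr16:20587427-20591120). Its fragment was in 10 listed pairs at ZT0, 2 at ZT6 and none at ZT12 or ZT18, so it was no bait in the ZT12 and ZT18 lists. Why it is missing there was not tested, and its lack of pairs is no measurement of lost contacts. All 7 of its members joined it to other promoters within 142.4 kb. The strongest member of all, with a score of 44.44, reached a nearby fragment at 11.9 kb, with the start of Mir1224, exons of Vwa5b2 itself and part of Alg3, an enzyme of N-glycan assembly. The others reached the promoters of Camk2n2, an inhibitor of CaM kinase II (19.97), AC087898.1 within the translation initiation factor gene Eif4g1 (13.56), Abcf3 (12.75) and Psmd2, a subunit of the proteasome cap (10.9). The remaining ones reached the start of Ece2, an endothelin-converting enzyme (8.92), and that of Chrd and Thpo, which encode the BMP antagonist chordin and the liver-made hormone thrombopoietin (8.45). Both ZT6 pairs were also listed at ZT0, with scores of 7.94 and 7.95 at ZT6 against 19.58 and 7.29 at ZT0. These partner fragments had contacts at every timepoint, for example 16, 16, 12 and 14 for Psmd2, unlike the Vwa5b2 fragment itself. Without the Vwa5b2 members, 2084 were left, with a median distance of 273 kb.

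The fragment with the starts of Ecd, a cell cycle regulator, and Fam149b (chr14:21166799-21168298) ended 7 members, all from other promoters between 46.9 and 356.8 kb away. The scores were 11.59 from Ppp3cb, a catalytic subunit of calcineurin, 10.54 from Mrps16, a mitochondrial ribosome protein, 10.24 from 1810063B07Rik, 10.02 from AC121599.1, 9.32 from Nudt13, 7.73 from Ttc18 and 7.51 from the Chchd1 fragment. It was in 22 pairs at ZT0 and in 14, 21 and 12 at the later timepoints. Its number of contacts at ZT12 was therefore nearly that at ZT0, although none of these 7 pairs was listed then.

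Lhx9 had 5 members, at scores of 15.01, 10.9, 10.17, 9.71 and 9.10, between 303.8 and 423.6 kb away. Its promoter was in 49 pairs at ZT0 and in 34, 31 and 30 at the later timepoints, some of them over the same stretch. Of the 5 members, 3 ended on Dennd1b fragments of 194, 223 and 212 bp. The 6 members of Gm11158 used a promoter fragment of 156 bp, ended within Dst, a cytoskeletal linker gene, and scored from 7.21 to 9.19. That fragment was in 39, 23, 24 and 21 pairs. Rasgrf2, an exchange factor for Ras proteins, had 5 members within its own gene body, from 810.7 to 881.0 kb away, at scores of 7.56 to 11.13, with 27, 23, 16 and 20 contacts. All members of these 3 promoters had a contact of the same promoter within 10 kb at another timepoint.

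Ccdc84 had 5 members with scores of 7.01 to 9.45 and contacts that ranged widely over the day, with 70 at ZT0 and 27, 43 and 51 at the later timepoints. The U6 fragment on chromosome 5 had 7 members at 7.03 to 7.76, with 104, 84, 78 and 95 contacts. Dsg2, a desmosome cadherin, had 5 at 7.18 to 8.52, with 32, 24, 27 and 31. Zfp874b, a zinc finger gene in a cluster of its kind, differed from these. Its 5 members joined it to other zinc finger promoters of the cluster, among them Zfp712 (8.11) and Zfp708 (8.09 and 8.06), and none had a contact within 10 kb at another timepoint. Genes of such clusters resemble each other in sequence, and how the authors' mapping placed reads among the copies was not tested.

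**Figure D4:**
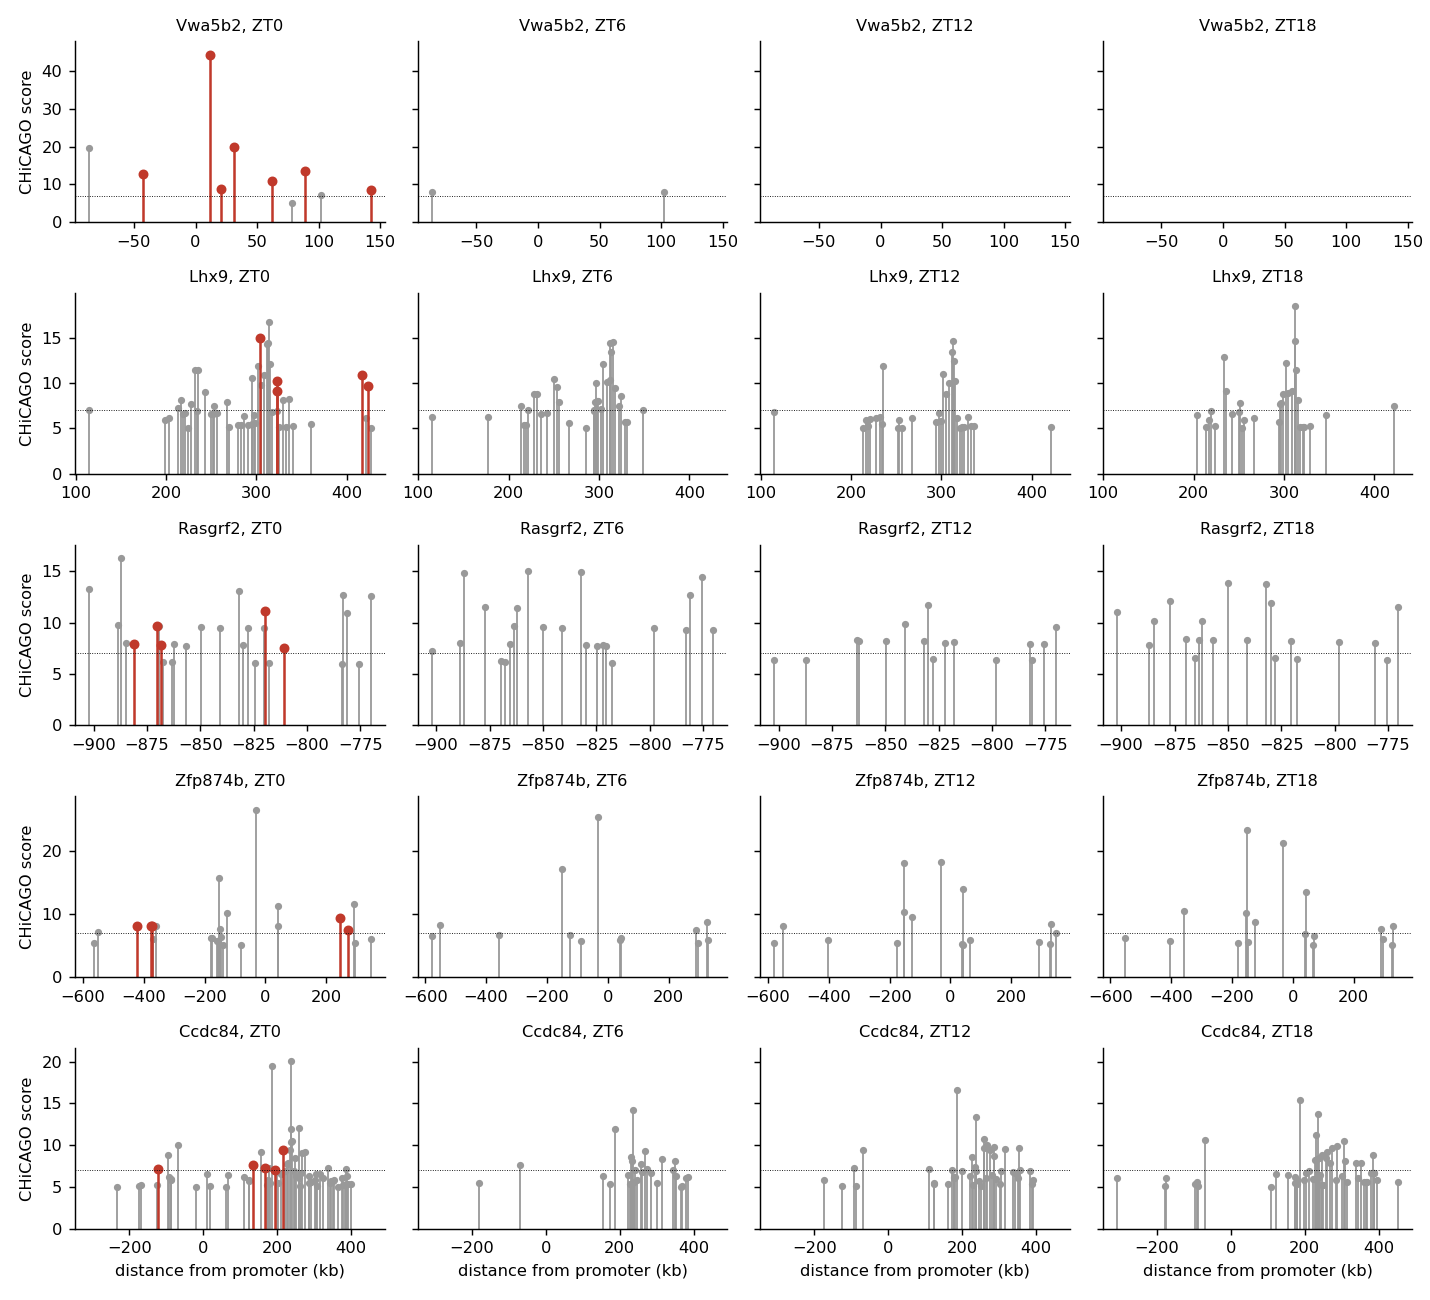
CHiCAGO scores (y axis) of the listed contacts of 5 promoters against the distance from the promoter (x axis, kb) at each timepoint. Red marks members, grey other listed pairs, and the dotted line a score of 7. Vwa5b2 has 10 contacts at ZT0 and none at ZT12 and ZT18. Lhx9 and Rasgrf2 have contacts at every timepoint, and each of their members lies within 10 kb of a contact listed at another timepoint.

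Further high scores within a chromosome joined Ms4a4b, a membrane protein gene, to Mrpl16, a mitochondrial ribosome protein, at 328.1 kb (18.36), Btn1a1, a butyrophilin, to intergenic sequence at 1541.4 kb (16.21), the Hist1h2ag fragment to intergenic sequence at 1406.8 kb (13.53) and Nme7, a nucleoside diphosphate kinase family gene, to intergenic sequence at 816.0 kb (13.23). Bdh2 was joined to a fragment of 151 bp at 442.8 kb (13.15), and Igf2bp3, an RNA-binding protein, to intergenic sequence at 1970.8 kb (12.9). The Ms4a4b promoter had 11, 11, 3 and 8 contacts over the day and that of Btn1a1 38, 31, 26 and 31. Both promoters thus kept contacts at every timepoint.

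Olfactory receptors had the highest share of members among the gene lists. On olfactory receptor promoters, which are silent outside sensory tissue, 58 of 622 contacts (9.32%, 7.28 to 11.9%) were members, of which 25 joined a pair of olfactory receptor promoters. Their median distance was 417 kb, against 145 kb for all ZT0 contacts of these promoters. The share was 11% at ZT6, 5.03% at ZT12 and 6.27% at ZT18, so it was above the background at every timepoint. The replication-dependent histone genes, which supply histones in S phase, had 38 of 820 (4.63%, 3.39 to 6.3%), against 4.46%, 1.27% and 3.42%. The Hist1h1b and Hist1h3i fragment had 7 of these, at 1758.7 to 1971.8 kb and scores of 7.30 to 10.05, with 59, 46, 63 and 59 contacts, while Hist1h4f and Hist1h3e had 5 each. Zinc finger Zfp genes had 41 of 1133 (3.62%, 2.68 to 4.87%), an interval that takes in the background.

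The Hox clusters, which encode the transcription factors of body axis patterning, had 14 members among 274 contacts (5.11%, 3.07 to 8.39%). The share fell through the other lists, with 2.36% at ZT6, 1.6% at ZT12 and 0 of 224 at ZT18. The highest-scoring one joined Hoxa2 to an intergenic fragment of 176 bp at 994.5 kb (10.52), and a second joined it to sequence nearby at 996.3 kb (7.69). Hoxa6 (8.5 and 7.56) and Hoxa9 (8.09) reached the same region, roughly 1 Mb from the cluster. Those of Hoxb6, Hoxb7, Hoxb8 and Hoxb9 scored from 7.15 to 7.9 and ended 256.2 to 590.8 kb away, in or beyond Skap1. All 14 had a contact of the same promoter within 10 kb at another timepoint.

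Among the metabolic lists, fatty acid oxidation and ketogenesis had the highest share, with 7 of 126 contacts (5.56%, 2.72 to 11%), an interval that takes in the background of 2.88%. Its members included those on Acadl and Acadm, the long- and medium-chain acyl-CoA dehydrogenases (10.44 and 8.39), Decr1, a dienoyl-CoA reductase (8.88 and 7.72), Acaa2, a thiolase (7.61), and the fragment of Cpt1b, the muscle form of carnitine palmitoyltransferase (7.22). The Acadl contact reached an exon-bearing fragment of Idh1 at 1685.9 kb. The Decr1 promoter had 14, 14, 13 and 17 contacts over the day, while the Trabd promoter, which was joined to the Cpt1b fragment, had 16 at ZT0 and 43, 30 and 46 at the other timepoints.

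Phase II conjugation genes had 10 of 241 (4.15%). Of these, 3 were on Ugt1a1, which conjugates bilirubin, and Gstm3, Gstm5, Gstm6 and Gstm7, glutathione transferases, had 1 each at 8.31, 8.41, 7.68 and 7.83. Cholesterol synthesis had 4 of 103 (3.88%). The 3 on Sqle, squalene epoxidase, reached Mtss1 introns (8.39 and 7.04) and the promoter of Trmt12 (7.99), and 1 on Tm7sf2, a sterol reductase, scored 7.06. The urea cycle and ammonia list had 5 of 130 (3.85%), with 8.68 and 7.26 on Glul, glutamine synthetase, and 1 each on Asl, Rhbg and Slc25a13. In glycolysis and gluconeogenesis it was 4 of 173 (2.31%), on Fbp1, the gluconeogenic bisphosphatase (7.75 and 7.31), Ldha (7.13) and Aldoa (7.02). All of these intervals took in the background.

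Serpins, with 5 of 151 (3.31%, 1.42 to 7.52%), and organic ion and ABC transporters, with 11 of 366 (3.01%, 1.69 to 5.3%), lay just above it with intervals that hold it. Nuclear receptors had 6 of 305 (1.97%, 0.905 to 4.22%), of which 3 were on Nr1h3, the oxysterol receptor LXR alpha, and the highest, 8.11, on Thrb, the thyroid hormone receptor beta. Hepatocyte transcription factors had 3 of 230 (1.3%, 0.445 to 3.76%), with 12.34 at 517.2 kb and 7.22 on Onecut1 and 8.68 on Gata6. Bile acid genes had 2 of 167, on the phospholipid transporter Abcb4 (7.74) and the side-chain oxidase Acox2 (7.07), and lipogenesis had 2 of 207, and the intervals of all 4 of these lists took in the background. Cell cycle and growth genes, with 2 of 320 (0.625%, 0.172 to 2.25%), formed the only listed group whose interval lay wholly below the background. No member was found among 96 contacts of cytochrome P450 promoters, which allows a share of up to 3.12%, whereas the ZT6 list had 10 of 136 (7.35%). There was none among 34 contacts of the albumin family (up to 8.82%) or 31 of MHC genes (up to 9.68%). Single-timepoint pairs of the MHC genes were 6 of 47 (12.8%) at ZT6, 0 of 32 at ZT12 and 6 of 44 (13.6%) at ZT18.

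Genes of secreted liver proteins and of hormone signalling had shares that could not be told from the background of 2.88%, which every interval of the 5 lists took in. Coagulation and complement had 6 of 229 (2.62%, 1.21 to 5.6%), with 8.05 and 7.34 on F3, tissue factor, 8.22 on the C1s fragment and 7.7 on complement C3. Apolipoproteins had 4 of 157 (2.55%, 0.995 to 6.37%), with the highest, 8.78, between Apoc1 and Irf2bp1 at 686.2 kb, and acute phase and iron genes had 4 of 237 (1.69%, 0.658 to 4.26%), led by 8.98 on the fibrinogen gene Fgg. The growth hormone and IGF axis had 4 of 213 (1.88%, 0.733 to 4.73%), with 9.41 on Igfbp3 at 1067.3 kb and 8.39 on the growth hormone receptor Ghr. The Ghr promoter had 76 contacts at ZT0 and 105, 114 and 90 at ZT6, ZT12 and ZT18, so it held a member at the timepoint with its fewest contacts. Insulin signalling had 5 of 377 (1.33%, 0.568 to 3.07%), with 8.76 on the kinase gene Pdpk1, 8.54 between Agtrap and Mtor and 8.34 on the fragment of Tsc2, a brake on Mtor.

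Promoters of circadian genes, which the study chose on RNA of the same experiment, had no surplus of members. On 1118 such fragments, 156 of 6667 contacts (2.34%, 2 to 2.73%) were members, against 2.93% (2.81 to 3.06%) on the other promoter fragments. For genes with their acrophase, the time of peak expression, at ZT0, it was 28 of 1562 (1.79%, 1.24 to 2.58%). These same promoters had single-timepoint shares of 2.62% at ZT6, 1.61% at ZT12 and 1.65% at ZT18, and at ZT0 the genes with acrophases of ZT6, ZT12 and ZT18 had 2.6%, 2.5% and 2.39%. The time of the peak and the timepoint of the list thus did not coincide in a higher share at ZT0. The 10 core clock promoters had no member among 22 contacts, which allows a share of up to 13.6%, too few contacts for a comparison. Of the clock output and accessory genes, 1 of 164 contacts was a member. It lay on Bhlhe41, a repressor of E-box-driven transcription, at 243.3 kb with a score of 7.22, and this promoter had 14, 4, 8 and 3 contacts over the day.

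The strongest members on promoters with acrophase ZT0 joined Rfxank, a regulator of MHC class II genes, to the lysophosphatidic acid receptor gene Lpar2 at 316.4 kb (12.45), Parp16 to the mitochondrial protease gene Clpx at 82.3 kb (10.35) and BC024479 to Ei24 (9.52). The Dph1 fragment was joined to that of Rpa1, a replication protein, and Smyd4 (9.41). The remaining ones among the 10 highest, on Efnb1, Gpr135, U2af2, Hdhd3, Nme2 and St6galnac6, scored from 7.93 to 8.42. Parp16 and Clpx are both circadian, as in only 2 other members, which joined 1300018J18Rik to Lmf2 (7.16) and Galnt1 to Elp2 (7.39). The Parp16 fragment was a bait in none of the other lists. The circadian genes the study names had 4 of 274, on Rnf125, a ubiquitin ligase (7.64), the retinaldehyde reductase Dhrs3 (7.49), the tight junction protein cingulin, Cgn (7.38), and Ppp1r3c, which targets a phosphatase to glycogen (7.0).

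**Figure D5:**
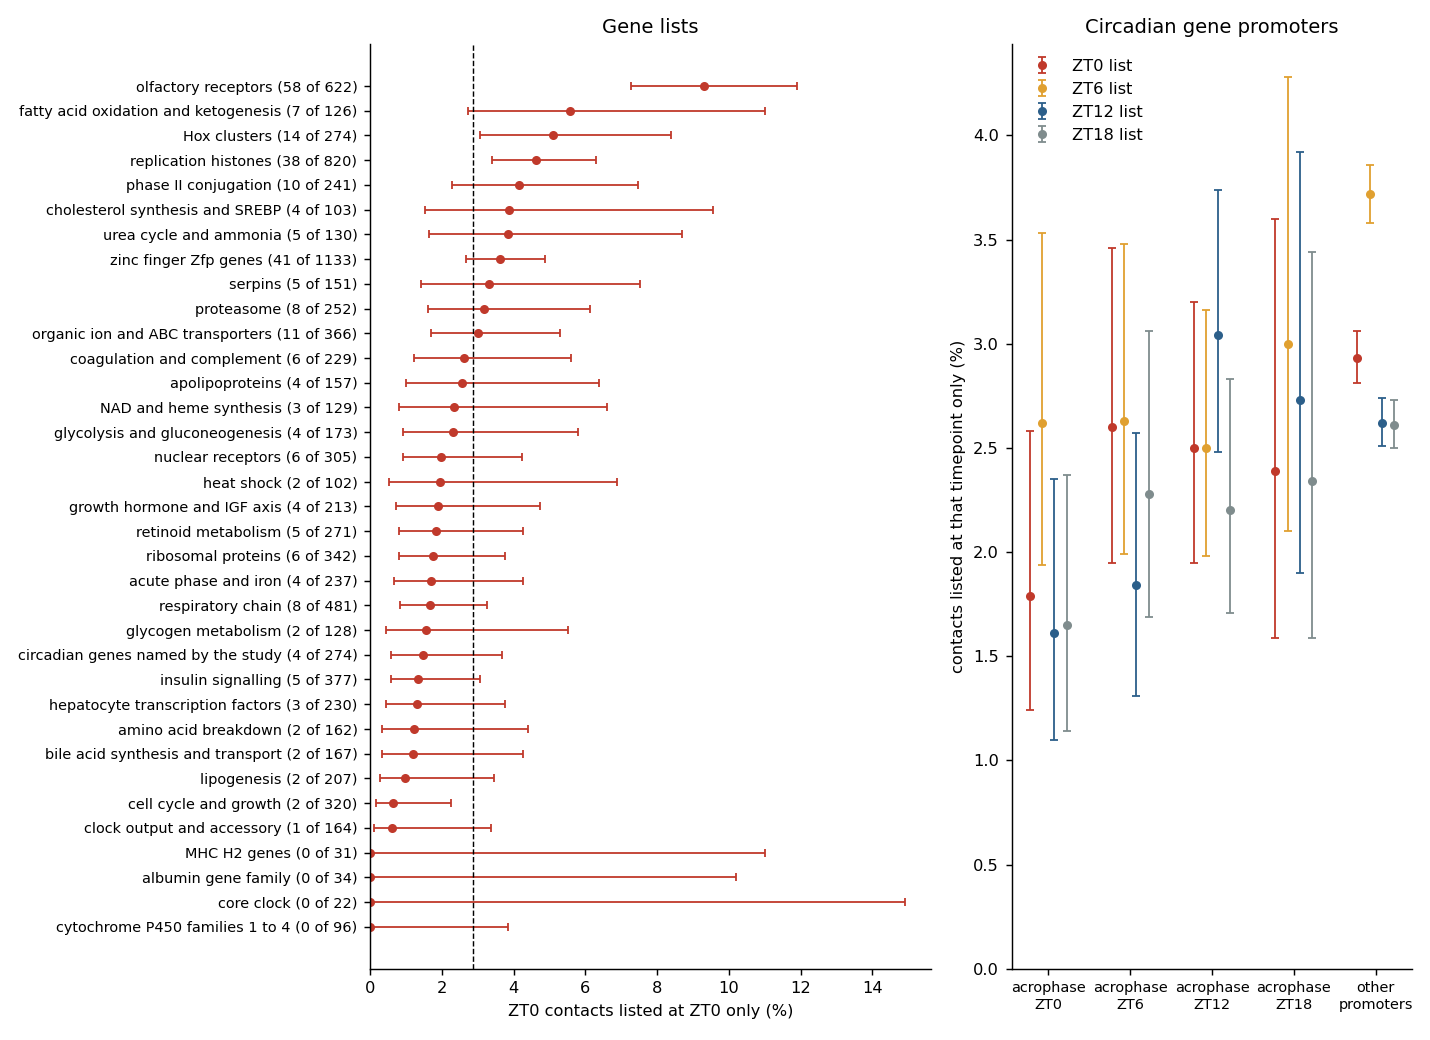
Left, share of the ZT0 contacts of each gene list that are members (x axis, %), with 95% Wilson intervals, the counts in the labels and the share over all ZT0 pairs (2.88%) as a dashed line. Right, single-timepoint share of contacts (y axis, %) for promoters of circadian genes by acrophase and for all other promoters, in each list. Olfactory receptors lie highest at 9.32%, and promoters with acrophase ZT0 have 1.79% at ZT0 against 2.93% for other promoters.

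Motifs of clock factors were as frequent at promoters with members as elsewhere. The stretches below are printed because these promoters carry a member and a match, shown in capitals, and each is the strand of its gene in build mm9. That of Bhlhe41 lies at chr6:145814076-145814105 on the minus strand with the E-box CACGTG, that of Lpar2 at chr8:72346311-72346340 on the plus strand with the same motif, and that of Parp16 at chr9:65062384-65062413 on the plus strand with the RORE core TAGGTCA, which REV-ERB and ROR factors bind.
Bhlhe41 promoter: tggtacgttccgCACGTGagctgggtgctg
Lpar2 promoter: gaaagggtgcccCACGTGggaaaagggggc
Parp16 promoter: ttcggcagggtTAGGTCAttgttctcccag
Windows ran from 250 bases before to 50 after the start of protein-coding genes and were searched for exact matches on both strands. An E-box was found in 8.62% (7.46 to 9.93%) of 1996 windows on fragments with a member, in 8.88% of 10181 windows on fragments without one and in 8.54% of all 16859. For the RORE core it was 2.51%, 1.98% and 2.18%, and for the D-box TTATGTAA, which PAR bZIP factors bind, 0.852%, 0.776% and 0.848%. The NR5A2 site TCAAGGTCA was found in 0.301%, 0.354% and 0.338%, the AP-1 site TGANTCA in 7.06% (6.02 to 8.27%), 5.91% and 6.38%, and a core of the CTCF motif in 2.96%, 3.21% and 2.96%. Per kb of non-promoter other end, members held 0.0918 CTCF cores against 0.104 in the rest of the ZT0 pairs with a score of 7 or more, and 0.134 against 0.144 E-boxes. The intervals overlapped for the E-box (0.124 to 0.145 against 0.142 to 0.146) but not for the CTCF core (0.0831 to 0.1 against 0.102 to 0.105). The D-box went the other way, with 0.0517 (0.0452 to 0.0582) against 0.0438 (0.0426 to 0.0449) per kb. For the RORE core, the NR5A2 site and the AP-1 site the values were 0.105 against 0.106, 0.0316 against 0.0306 and 0.326 against 0.319. Base composition of these ends differed as well, with a median GC content of 43.4% for the members against 44.8% for all ZT0 pairs of this score. Its part in the motif values was not tested. A match is a run of letters, and no binding was measured here.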

How the data were processed

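The authors mapped P-CHi-C reads with HiCUP to mm9 (the build named in the submitters' processing notes), pooled the libraries by timepoint and ran CHiCAGO on them. Versions are not given in the sources used here. The deposited files give, for each timepoint, 1 CHiCAGO score a fragment pair, never below 5. Each score comes from a background fitted by timepoint, so a difference in depth or fragment length between libraries can move pairs across the minimum. Read depth was not analysed here, and precision rests on numbers of pairs.

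The work used python 3.11.15 with numpy 2.4.6, pandas 2.3.3 and, for figures, matplotlib 3.10.9. Of 129887 listed fragments, 129886 matched an mm9 HindIII fragment, and the other is mitochondrial. A promoter fragment is a bait of any list, and genes came from GENCODE annotation of the same build. Pairs were unordered, and distances run between midpoints. A nearby contact is another end within 10 kb, with the pair itself not counted. Shares have 95% Wilson intervals and medians binomial order-statistic intervals (scipy 1.17.1), and pairs of a promoter are not independent, so the true error is larger. A share of 0 is given with the limit of 3 counts. Nothing was tested, since each timepoint has 1 list. The counting was tested on simulated lists.

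The CTCF core left 4 positions free. The members and gene lists were chosen with earlier results of these data known. Acrophases are the study's. Named are the 12 promoter fragments with most members, the 12 highest-scoring members within and 3 between chromosomes, the 10 highest with acrophase ZT0, those on core clock promoters, the 3 longest, the shared other ends and, in each gene list, the promoter with most members and the highest member. Further members of the gene lists and the short fragments shown were chosen after their values were seen. A few members that the rule names are not reported here. Alternatives changed the score minimum, the number of pairs per list, the tolerance for absence, the distance measure, the baits and the gene assignment.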

Additional observations from a re-analysis of the deposited data

How the results depend on the processing

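No paired analysis was possible because each timepoint has 1 merged list, and no replicate could be left out for the same reason. Of 82 recomputed values, 35 were counted as the same and 47 as moved. Shares, medians and differences were the same if they stayed within the counting interval of the reported value. Numbers of members and of promoter fragments have no such interval and were judged by a fixed fold change. With a score minimum of 6, 8 and 10 in turn, the members numbered 6445, 706 and 114, on 4980, 769 and 137 promoter fragments. They made up 6.38%, 1.31% and 0.356% of the ZT0 pairs, their median distance was 245, 296 and 342 kb, and 16.1%, 22% and 34.2% joined promoters. The share for acrophase ZT0 was 4.88%, 0.732% and 0.248%. More than 150 kb was spanned by 73.6% at a minimum of 6 and 85.3% at 10, and 70.2% had a nearby contact at 10. Where absence was required of every contact within 10 kb, and where it was required of the same and adjoining fragments, 495 and 935 members remained by construction, on 694 and 1154 promoter fragments. These were 0.682% and 1.29% of the pairs, with median distances of 334 and 300 kb, 83.4% and 82.1% over 150 kb, 52.5% and 36.6% promoter-promoter, 0% and 47.1% with a nearby contact, and 0.64% and 0.96% for acrophase ZT0. With every list cut to 146262 top-scoring pairs, the share of members was 3.19%. 2 alternatives were chosen after seeing the data. Without other ends under 250 bp the share was 2.65%, with 81.3% over 150 kb, 20.6% promoter-promoter and 74.2% with a nearby contact. With only promoter fragments that are baits in all 4 lists it was 2.69%, with 16.4% promoter-promoter and 79.6% with a nearby contact. The share at ZT0 minus that of the other lists was -0.05 percentage points as reported (-0.19 to 0.09), -0.29 at a minimum of 6 and -0.28 without the short ends, but 0.05 and 0.06 at minimums of 8 and 10 and 0.07 with lists of equal size. Its sign therefore changed in 3 of these settings, with intervals that hold 0. The gap between fragments as the distance, baits of ZT0 alone, circadian genes at the intron level and a 5 kb search for baits moved no value by more than its counting error. The main limits are that a pair scored just under 5 looks the same as a pair with no reads, that most members lie within 1 unit of the score minimum, and that no replicate list exists.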

Other observations

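Of the 2091 members, 13 (0.622%, 0.364 to 1.06%) joined fragments of different chromosomes, against 0.0896% of all ZT0 pairs with a score of 7 or more. The ZT6-only, ZT12-only and ZT18-only pairs had 0.463%, 0.354% and 0.716%, so this was common to the single-timepoint pairs of every list. A score of 20.83 was held by Hdc, the histidine decarboxylase gene on chromosome 2, with an exon-bearing fragment of the translation release factor gene Etf1 on chromosome 18. Hist1h2ae on chromosome 13 was joined to the Hist2h3c2 fragment on chromosome 3 (17.34), so that both ends carry histone genes. The longest members within a chromosome lay on chromosome 1, where Ugt1a1 was joined to a pair of Xkr4 intron fragments at 86820.1 kb (10.6) and 86699.7 kb (10.38), and the Hjurp fragment to intergenic sequence at 85440.8 kb (9.21). Ugt1a1 had a further member on chromosome 6 (13.06).

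For 154 members (7.36%), among them the Vwa5b2 member with a score of 44.44, the promoter fragment was no bait in 1 or more of the other lists. Over all ZT0 pairs with a score of 7 or more it was 0.646%. The ZT6-only, ZT12-only and ZT18-only pairs had 8.4%, 6.22% and 7.11%. For 29 members, on 27 promoter fragments, the promoter fragment was a bait in none of the other lists. Beside Parp16, these were led by Olfr452 with Sval2 (11.26), Crmp1, a neuronal cytoskeleton gene, with Stk32b (10.44), and the C-type lectin genes Cd209a and Cd209c at 207.8 kb (10.13). By chromosome, the share of ZT0 pairs that were members ran from 2.21% on chromosome 17 to 3.75% (3.19 to 4.4%) on chromosome 13, which holds the large histone cluster, and was 4.38% (3.08 to 6.18%) on the X chromosome. The fragment with the start of the beta-globin cluster gene Hbb-bh2 ended 3 members, from the olfactory receptor promoters Olfr544 (7.74), Olfr547 (7.31) and Olfr574 (7.2), and was in 15, 15, 15 and 17 listed pairs over the day.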
